A study of Mus musculus with 12 samples.

Results

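The natriuretic peptide and cyclic GMP pathway of the mouse left ventricle was followed through 8 genes, the hormones Nppa and Nppb, the protease Corin, the receptors Npr1, Npr2 and Npr3, the phosphodiesterase Pde5a and the kinase Prkg1. The genes were taken by symbol, as a pathway, out of 20021 symbols that could be given to probes of the array. Each of the 8 had 1 probe among the 39429 probes, and all 8 were among the 30346 probes that passed the filter on dim signal (well above background on at least 3 of 12 arrays). Npr1 and Npr3 did not reach that level on every array: Npr1 was well above background on 7 of 12 arrays and Npr3 on 11 of 12.

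Nppa encodes atrial natriuretic peptide and Nppb encodes brain natriuretic peptide, hormones that heart muscle cells make and release under stretch. Corin, a membrane protease of heart muscle, cuts the Nppa precursor into the active peptide. The peptides bind Npr1, a receptor whose inner part is a guanylyl cyclase; Npr2 is the matching receptor for the C-type peptide Nppc, and Npr3 takes the peptides up and clears them. Cyclic GMP then activates the kinase Prkg1, and Pde5a breaks cyclic GMP down. In the ventricle, Nppa and Nppb are widely used as markers of pressure load and hypertrophy.

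The data were 1-colour Agilent expression arrays of RNA from a section of left ventricle, taken from C57/Bl6 mice, 3 arrays in each of 4 groups. Wild-type mice and mice overexpressing CnAb1, a splice variant of the beta catalytic subunit of the phosphatase calcineurin, had either a sham operation or banding of the aorta (TAC, a narrowing of the aorta that raises the pressure against which the left ventricle pumps). By the sample descriptions hearts were taken 21 days after surgery, sham hearts too. A separate time label reads 21 for the TAC samples but differs for the sham samples, and 21 days was used for all. No promoter or cell type is named for the transgene, no age or sex is given, and no label says whether the 3 arrays of a group are 3 animals, so p-values measure the spread between these arrays, which may be technical. The probe for Ppp3cb, the gene behind CnAb1, read 1.29 to 1.55 in the transgenic arrays and 1.33 to 1.72 in the wild-type arrays, and it cannot check the transgene, since where the probe lies against the variant is not known.

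Values are log2 of the background-corrected signal minus the array's own 75th percentile, so 1 unit is a 2-fold difference and a negative value lies under that percentile. The percentile itself differed between groups, with a mean log2 signal of 9.06 for wild-type mice with sham and 9.80 with TAC, and of 9.41 and 9.52 for the transgenic mice. Without that scaling the median of all probes in the wild-type TAC comparison moved from -0.09 to 0.64, so a lower value is lower relative to the rest of the array. Transgenic sham array 2 stood apart: 37.0% of its probes were well above background, against 60.2% to 78.1% on the other 11, and its negative controls read 48.6 against 15.4 to 21.0. All 9 markers of ventricular heart muscle cells (Myh6, Myl2, Tnnt2 and others) were well above background on all 12 arrays. In these bulk samples, fewer cells of a type and less RNA per cell cannot be told apart.

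Nppa and Nppb lie side by side on chromosome 4, with no other gene between them in the RefSeq table, and both were called in wild-type TAC hearts, so the 250 bases before each start site are shown (RefSeq, GRCm38.p6, plus strand, 5′ to 3′). Nppa spans chr4:148000472-148000721 and Nppb spans chr4:147985650-147985899. Capitals mark matches, on either strand, to the GATA motif GATAA, the core of the Nkx2-5 motif AAGTG and the M-CAT motif GGAATG bound by Tead factors.
Nppa: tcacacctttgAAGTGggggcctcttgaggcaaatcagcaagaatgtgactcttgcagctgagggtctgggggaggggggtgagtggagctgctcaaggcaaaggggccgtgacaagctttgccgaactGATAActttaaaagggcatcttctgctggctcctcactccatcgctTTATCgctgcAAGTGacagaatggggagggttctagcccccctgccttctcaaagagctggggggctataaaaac
Nppb: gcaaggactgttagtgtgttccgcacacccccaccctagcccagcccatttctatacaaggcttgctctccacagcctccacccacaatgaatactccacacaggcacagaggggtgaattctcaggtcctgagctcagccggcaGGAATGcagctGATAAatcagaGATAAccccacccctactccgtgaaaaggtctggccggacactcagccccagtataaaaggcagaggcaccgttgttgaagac
Both stretches held 2 GATA matches, a motif found in 22.6% of all 32851 promoter stretches of that length. The Nppa stretch held 2 AAGTG matches (40.7% of all promoters hold at least 1), and the Nppb stretch held 0. The Nppb stretch held 1 GGAATG match (12.6% of all promoters), and the Nppa stretch held 0. The core of the NFAT motif, GGAAA, bound by the factors that calcineurin activates, had 0 matches in both, against at least 1 in 55.6% of all promoters. The CRE motif TGACGTCA (1.55% of promoters), the AP-1 motif TGANTCA (6.75%), the CArG box (1.47%) and the MEF2 site (2.92%) also had 0 matches in both, and the E-box CANNTG (66.2%) had 2 in Nppa and 1 in Nppb. A match is a description of the letters and no evidence of binding.

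**Figure D1:**
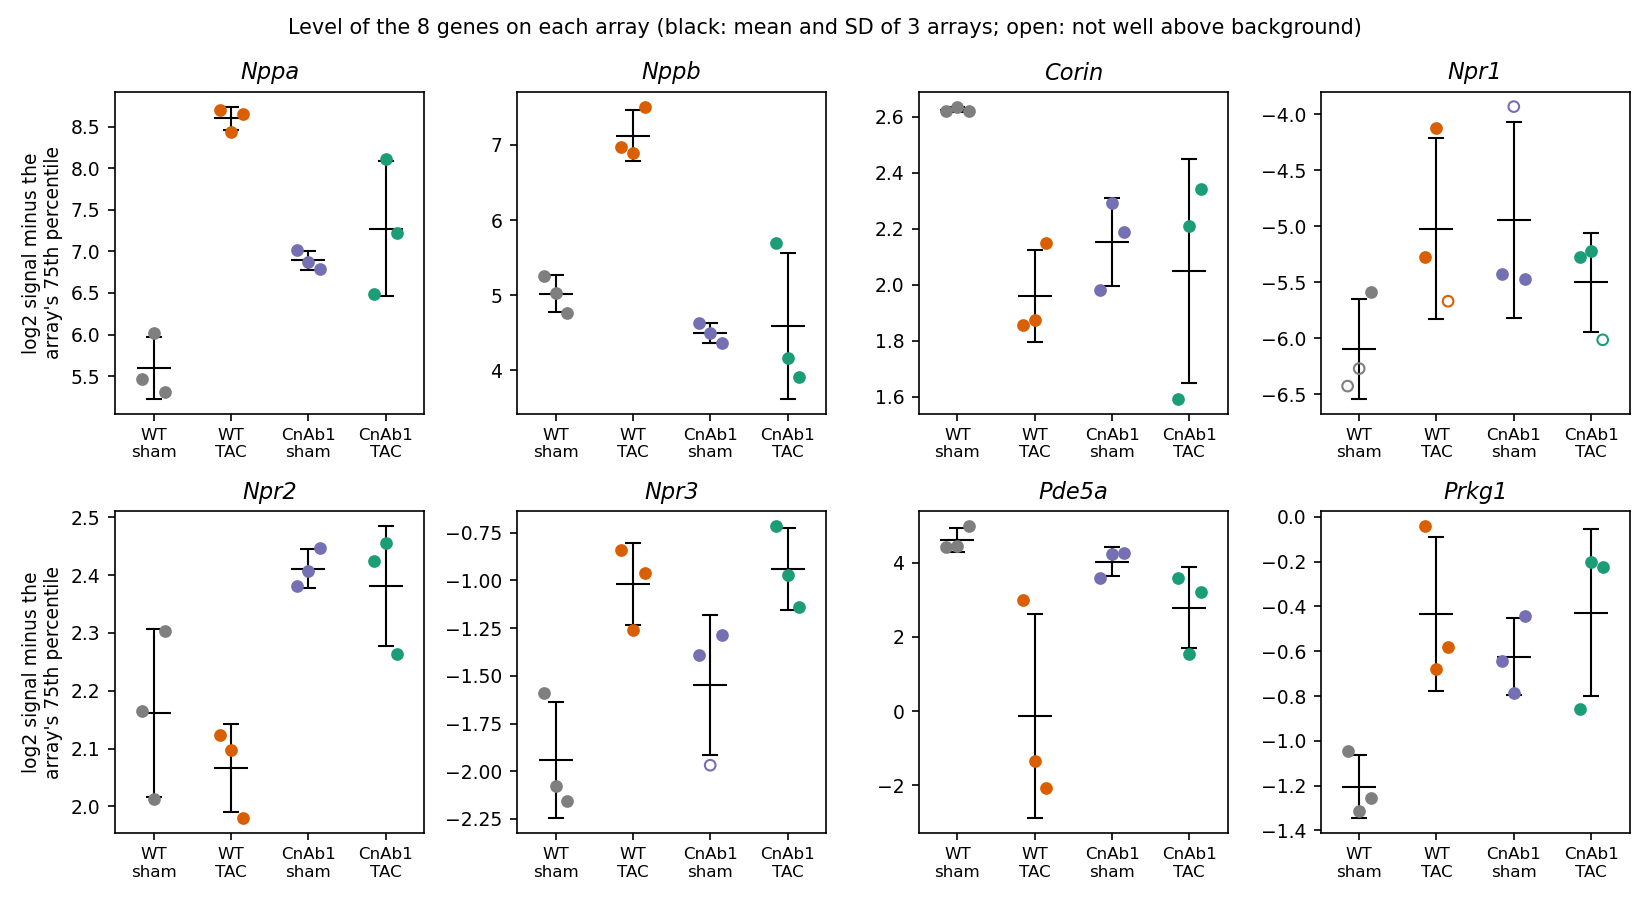
Level of each of the 8 genes on each array (vertical axis: log2 signal minus the array's 75th percentile; horizontal axis: the 4 groups). Points are arrays, open where the probe was not well above background; black bars are the mean and SD of 3 arrays. Nppa and Nppb were highest on the 3 wild-type TAC arrays, and Pde5a was lowest on 2 of them.

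In wild-type hearts, 6 of the 8 genes passed the test for TAC against sham: Nppa, Nppb, Npr3 and Prkg1 were higher and Corin and Pde5a were lower, while Npr1 and Npr2 did not pass. Over all 30346 probes the same test (limma, Benjamini-Hochberg adjusted p under 0.05) called 20.2%, of which 9.09% of all probes were higher and 11.2% lower. The median difference of the 8 genes was 0.85, against -0.09 over all probes. At an unadjusted p under 0.05 the count was also 6 of 8, against 33.2% of all probes. The values of the TAC and sham arrays were apart, without overlap, in 6 of the 8 genes, against 45.9% of all probes. In transgenic hearts limma called 0 of the 8 genes for TAC against sham, and 0% of all probes, with 1 of 8 genes (Npr3) at an unadjusted p under 0.05, against 6.31% of all probes, and the same gene alone without overlap, against 8.73%. Transgenic against wild-type sham hearts also gave 0 of 8 calls, against 1.25% of all probes, with 5 of 8 at an unadjusted p under 0.05 (17.2% of all probes) and 7 of 8 without overlap between the groups (22.3%). Transgenic against wild-type TAC hearts gave 1 call, Nppb, lower (3.86% of all probes, 2.06% lower). There 4 of 8 genes had an unadjusted p under 0.05 (22.1% of all probes) and 3 of 8 did not overlap (32.5%). The difference between the TAC responses of the genotypes gave 1 call, Nppa, in the negative direction (6.71% of all probes, 3.13% negative), and 4 of 8 genes had an unadjusted p under 0.05 (24.7% of all probes). These comparisons share groups, so their counts are not independent of each other.

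Arrays lay on 5 slides, which held the groups unevenly. With slide as a fixed block 304 of 30346 probes passed in wild-type hearts in place of 6141, and of the 8 genes only Npr1 passed; the blocked value for TAC in wild-type hearts is given with each gene. The 1 slide with wild-type sham and TAC arrays (2 sham, 1 TAC) also held transgenic sham array 2, the array that stood apart. Within-slide values for genotype in sham hearts rest on it. The 1 slide with TAC arrays of both genotypes (2 wild type, 1 transgenic) also held 1 transgenic sham array. Within-slide values for TAC in transgenic hearts compare 1 array with 1 array there. All within-slide values have no test.

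**Figure D2:**
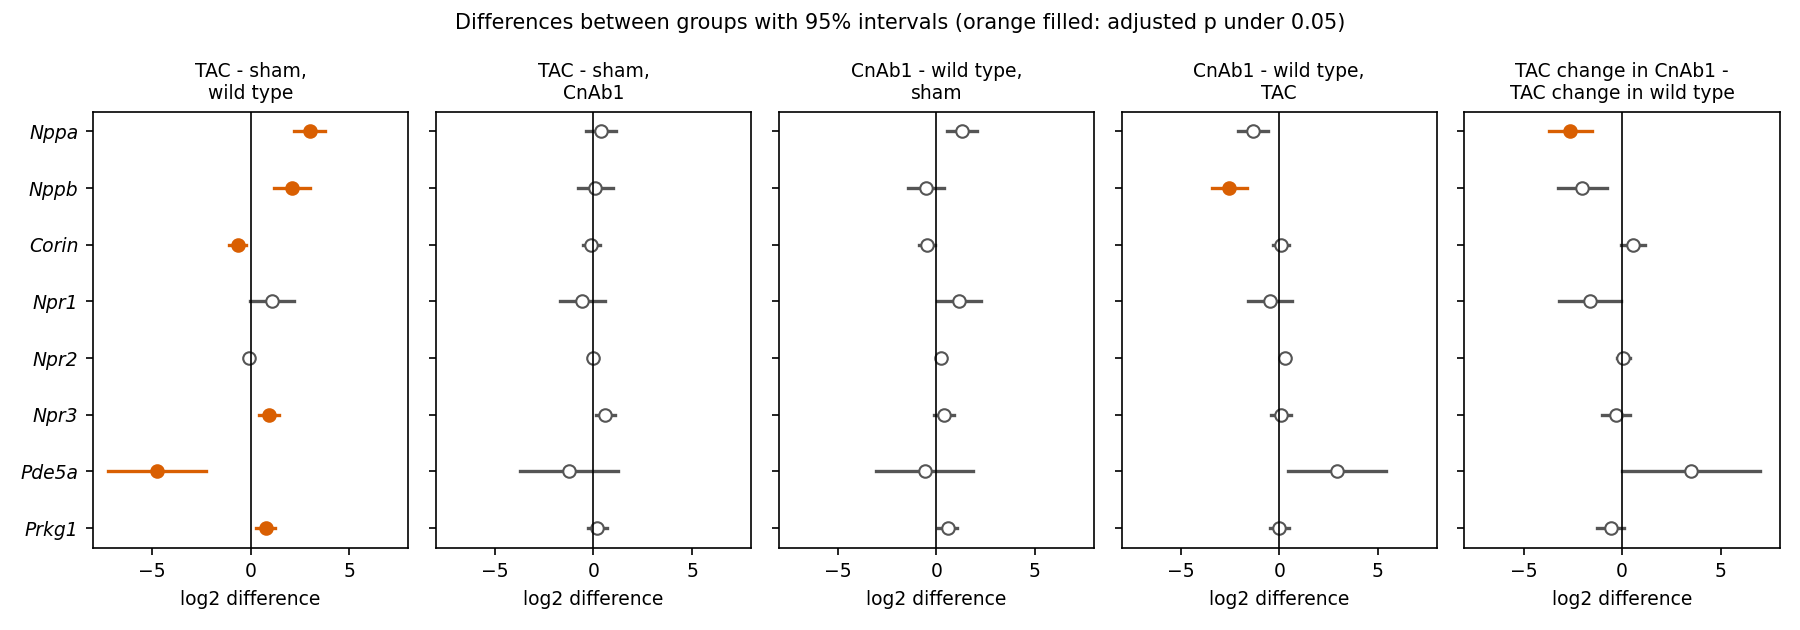
Differences between groups for the 8 genes (horizontal axes: log2 difference; bars: 95% intervals from limma; orange filled points: adjusted p under 0.05). Of the 5 comparisons, TAC against sham in wild-type hearts holds 6 of the 8 orange points.

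Nppa, the atrial natriuretic peptide gene, was 7.99-fold higher after TAC in wild-type hearts. Its values were 5.47, 6.02 and 5.31 on the wild-type sham arrays and 8.70, 8.44 and 8.66 on the wild-type TAC arrays. They were 7.02, 6.87 and 6.79 in transgenic sham and 6.49, 8.11 and 7.22 in transgenic TAC hearts. The wild-type TAC arrays were the 3 highest of the 12 and the wild-type sham arrays the 3 lowest, and the transgenic groups lay between them and overlapped each other. The order of the group means was therefore wild-type sham (5.60 ± 0.37, SD, n = 3), transgenic sham (6.89 ± 0.11), transgenic TAC (7.27 ± 0.81) and wild-type TAC (8.60 ± 0.14), where the transgenic groups were the only neighbours in that order whose arrays overlapped.

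In wild-type hearts the difference in Nppa was 3.00 ± 0.35 (SE; adjusted p = 0.0012). It stayed past the threshold in 26 of 27 other settings; with slide as a fixed block it was 2.72 (adjusted p = 0.0636), and within the slide that held both groups it was 2.69. In transgenic hearts it was 0.38 ± 0.35 (95% interval -0.39 to 1.15, adjusted p = 0.834; 0.20 within a slide). The difference between these responses was -2.62 ± 0.49 (adjusted p = 0.0227), the transgenic response being the smaller. That call was lost without wild-type sham array 1 (adjusted p = 0.065), wild-type sham array 3 (0.0666), wild-type TAC array 1 (0.0513) or wild-type TAC array 3 (0.0546), with normexp correction (-2.46, adjusted p = 0.099) and with slide as a fixed block (-2.54, adjusted p = 0.187). Transgenic sham hearts read 1.29 ± 0.35 above wild-type sham hearts (adjusted p = 0.105; 1.12 within a slide), and transgenic TAC hearts -1.33 ± 0.35 against wild-type TAC hearts (adjusted p = 0.0634; -1.46 within a slide); neither passed. Without transgenic TAC array 2 the first of these passed at 0.0448 and the second at 0.0233. The Nppa probe is printed 10 times on the array, and the SD between the spots of an array ran from 0.03 to 0.17, under the SD between arrays in the wild-type sham and transgenic TAC groups.

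Nppb, the brain natriuretic peptide gene, was 4.30-fold higher after TAC in wild-type hearts and did not pass the test for TAC in transgenic hearts. The wild-type sham arrays read 5.26, 5.03 and 4.77 and the wild-type TAC arrays 6.97, 6.89 and 7.51. Transgenic sham arrays read 4.63, 4.49 and 4.36, all under the wild-type sham arrays. Transgenic TAC arrays read 5.70, 4.16 and 3.91: array 1 lay above every sham array and the other two lay below every other array. The order of means was transgenic sham (4.50 ± 0.14), transgenic TAC (4.59 ± 0.97), wild-type sham (5.02 ± 0.24) and wild-type TAC (7.12 ± 0.34), and the transgenic TAC arrays overlapped the wild-type sham range.

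For Nppb the wild-type difference was 2.10 ± 0.40 (adjusted p = 0.0067), past the threshold in 26 of 27 other settings, with 1.80 (adjusted p = 0.102) under the slide block and 1.74 within a slide. The transgenic difference was 0.09 ± 0.40 (95% interval -0.80 to 0.99, adjusted p = 0.964; -0.73 within a slide). Transgenic TAC hearts were 5.80-fold below wild-type TAC hearts, a difference of -2.54 ± 0.40 (adjusted p = 0.0149), and -3.33 within a slide. This call was lost without transgenic TAC array 2 (adjusted p = 0.0527) or wild-type TAC array 3 (0.0658), and with the 2 compared groups fitted alone (0.0869). It was also lost with normexp correction (-2.52, adjusted p = 0.0901) and under the slide block (-3.30, adjusted p = 0.202). The difference between the responses was -2.01 ± 0.56 and did not pass (adjusted p = 0.0622), but passed without transgenic TAC array 1 (-2.56, adjusted p = 0.033). In sham hearts the genotypes differed by -0.52 ± 0.40 (adjusted p = 0.541).

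On each of the 3 transgenic sham arrays Nppa read above and Nppb below all wild-type sham arrays, and neither gene passed the test for genotype in sham hearts. The change in Nppa minus the change in Nppb, each taken from its wild-type sham mean, was 1.80, 1.80 and 1.85 on the transgenic sham arrays and -0.37, 0.41 and -0.04 on the wild-type sham arrays. It was 1.15, 0.97 and 0.56 in wild-type TAC hearts and 0.21, 3.37 and 2.73 in transgenic TAC hearts. The 3 transgenic sham arrays lay within a narrow range above all 6 wild-type arrays, and the transgenic TAC arrays were widely spread. The gap on transgenic TAC array 1 lay under those of the 3 wild-type TAC arrays. The gap was chosen with earlier results of these genes known, and it is given as a description.

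**Figure D3:**
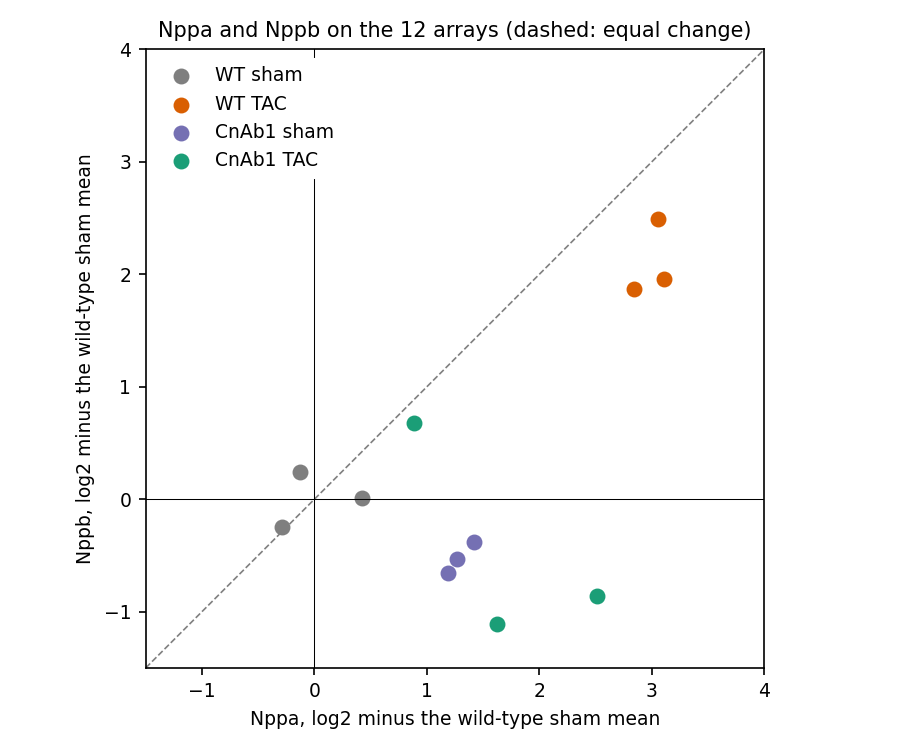
Change in Nppa (horizontal axis) and Nppb (vertical axis) on each of the 12 arrays, as log2 minus the wild-type sham mean; the dashed line marks equal change. Wild-type TAC arrays lie high on both axes, transgenic sham arrays lie right of 0 on the Nppa axis and under 0 on the Nppb axis, and transgenic TAC arrays are spread from 0.21 to 3.37 in the gap between the changes.

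Markers of other cells were set beside the hormones, since atrial muscle makes Nppa at a high level. Of the 6 atrial markers tested, only Nr2f2 was called in wild-type hearts (0.62, adjusted p = 0.0357); Nr2f2 is also a venous endothelial gene. The atrial light chain Myl7 differed by -0.27 (adjusted p = 0.561) and the atrial factor Bmp10 by -0.18 (adjusted p = 0.807). Both lay under the median difference of the 6 atrial markers, which was 0.18, against -0.09 over all probes. Sln was well above background on 4 of 12 arrays. The mean of the 6 atrial markers over the wild-type sham level ran from -0.04 to 0.46 in wild-type TAC, 0.08 to 0.64 in transgenic sham and 0.13 to 0.49 in transgenic TAC hearts. Only 2 of the 6 were well above background on all 12 arrays. Ventricular muscle markers ran from -0.69 to -0.55 in wild-type TAC hearts (7 of 9 lower). They ran from -0.40 to -0.22 in transgenic sham and -0.50 to -0.27 in transgenic TAC hearts. These values are relative to the array's 75th percentile, whose mean log2 signal was 0.74 higher in wild-type TAC than in wild-type sham hearts. Of the fibroblast markers 5 of 6, Col1a1 and Postn among them, were higher in wild-type TAC hearts, with a mean of 2.14 to 2.52, against 0.61 to 0.80 in transgenic sham and 0.76 to 1.27 in transgenic TAC hearts. The mean of the 5 mesothelial markers, 1 of which was lower in wild-type TAC hearts, ran from -1.78 to -0.48 there. It ran from -2.03 to 0.18 in transgenic sham and -1.66 to -0.26 in transgenic TAC hearts. Only 1 of the 5 was well above background on all 12 arrays. On transgenic sham array 2, which read 0.18, 1 of the 5 was well above background. Macrophage markers were higher for 3 of 5, and 0 of 4 conduction, 0 of 5 platelet, 0 of 2 lung and 0 of 3 red cell markers were called. Over all probes 9.09% were higher and 11.2% lower in wild-type TAC hearts. The part of these shifts in the differences of the 8 genes was not tested.

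By the root mean square difference over the 12 arrays, each gene taken from its wild-type sham mean, the 5 genes most like Nppa among 9157 were Mfap5 (0.34), Tgfb2 (0.39), Fbn1 (0.39), Serpinf1 (0.39) and Aspn (0.40), where Nppa itself had a root mean square of 1.87. Mfap5 and Fbn1 are microfibril genes, Tgfb2 is a growth factor and Aspn a small matrix proteoglycan. Their means in wild-type TAC hearts lay 2.70 to 3.16 above sham. The 5 most like Nppb were Ankrd1 (0.48), a stress-response gene of heart muscle, Cx3cl1 (0.59), a chemokine, Cpxm1 (0.60), Adam19 (0.61), a membrane protease, and Eln (0.66), the elastin gene, where Nppb had a root mean square of 1.19. The mean of Ankrd1 was 1.63 above wild-type sham in wild-type TAC hearts, -0.43 in transgenic sham and 0.00 in transgenic TAC hearts.

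Corin, whose protease makes the active Nppa peptide, was 1.59-fold lower after TAC in wild-type hearts. Its wild-type sham arrays read 2.62, 2.64 and 2.62 and its wild-type TAC arrays 1.86, 1.88 and 2.15. Transgenic sham arrays read 1.98, 2.29 and 2.19 and transgenic TAC arrays 1.59, 2.21 and 2.34. The wild-type sham arrays were the 3 highest of the 12, with an SD of 0.01, and the other 3 groups, with means of 1.96 ± 0.17 (wild-type TAC), 2.05 ± 0.40 (transgenic TAC) and 2.15 ± 0.16 (transgenic sham), overlapped each other. The wild-type difference was -0.67 ± 0.19 (adjusted p = 0.0325). It passed in 15 of 27 other settings; it was lost without any of the 6 wild-type arrays (adjusted p from 0.0514 to 0.0977) and under the slide block (-0.63, adjusted p = 0.188), was -0.75 within a slide, and turned to 0.07 (adjusted p = 0.816) without scaling between arrays. Transgenic sham hearts read -0.47 ± 0.19 against wild type (adjusted p = 0.236) and transgenic TAC against sham hearts -0.11 ± 0.19 (adjusted p = 0.909).

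Of the 6 other measured genes for ligands and their processing, 0 passed in wild-type hearts, against 20.2% of all probes, with a median difference of -0.13. Furin, a protease that cuts the Nppb precursor, differed by -0.47 ± 0.18 (adjusted p = 0.0984), and Pcsk6, a protease that activates Corin, by 0.70 ± 0.23 (adjusted p = 0.058). Ostn, the gene of the peptide osteocrin, which binds Npr3, was higher in sham hearts of transgenic than of wild-type mice by 2.92 ± 0.57 (adjusted p = 0.045). Ostn read -3.45, -3.94 and -1.60 on the transgenic sham arrays, of which array 2 was not well above background, and from -6.44 to -5.47 on the wild-type sham arrays, of which 1 of 3 was. It was well above background on 6 of 12 arrays in all, and with normexp background correction the difference was 0.78 and with slide as a block 1.79, neither past the threshold. Nppc, the C-type peptide gene, was not well above background on enough arrays to be tested.

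Npr3, the clearance receptor, was 1.89-fold higher after TAC in wild-type hearts. Wild-type sham arrays read -1.59, -2.08 and -2.16 and wild-type TAC arrays -0.84, -1.26 and -0.96. Transgenic sham arrays read -1.39, -1.97 and -1.28, array 2 not being well above background, and transgenic TAC arrays -0.71, -0.97 and -1.14. In both genotypes every TAC array lay above every sham array, and the TAC groups, with means of -1.02 ± 0.22 and -0.94 ± 0.22, overlapped. The difference was 0.92 ± 0.22 in wild-type hearts (adjusted p = 0.0182) and 0.61 ± 0.22 in transgenic hearts, which did not pass (limma, adjusted p = 0.786). The difference between these responses was -0.32 ± 0.32 (95% interval -1.02 to 0.39, adjusted p = 0.583). The wild-type call was lost without wild-type sham array 2 (adjusted p = 0.0606) or 3 (0.069). It was also lost without wild-type TAC array 1 (0.0628) or 3 (0.064), and with normexp correction (0.76, adjusted p = 0.076). The wild-type difference was 0.51 (adjusted p = 0.187) under the slide block and 0.58 within a slide. Without transgenic sham array 2 the transgenic difference was 0.39.

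Npr3 is also a marker of the endocardium, the inner lining of the heart. Of the 6 endocardial markers, Npr3 included, 3 were higher and 1 lower in wild-type TAC hearts, with Plvap at 1.33 and Cdh11 at 2.33 higher, Cytl1 at -0.70 lower and Nfatc1 at 0.30 not passing. The mean over the 6 markers ran from 0.32 to 0.98 in wild-type TAC, -0.10 to 0.26 in transgenic sham and 0.26 to 0.36 in transgenic TAC hearts, and its part in the Npr3 difference was not tested. The genes most like Npr3 over the 12 arrays were Rcor2 (0.21), Lrrcc1 (0.23), Cntrl (0.27), Tnfrsf23 (0.27) and Pcolce2 (0.28), out of 9158, where Npr3 had a root mean square of 0.74. Rcor2 is a transcriptional corepressor, Lrrcc1 and Cntrl are centrosome genes and Pcolce2 enhances procollagen processing.

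Npr1, the guanylyl cyclase receptor for the Nppa and Nppb peptides, was measured near background. Wild-type sham arrays read -6.43, -6.27 and -5.59, wild-type TAC arrays -5.28, -4.12 and -5.67, transgenic sham arrays -5.43, -3.93 and -5.47 and transgenic TAC arrays -5.27, -5.22 and -6.01. Well above background were 1 of 3 wild-type sham arrays and 2 of 3 in each other group, and the highest value of all, on transgenic sham array 2, was not. The wild-type difference of 1.07 ± 0.50 did not pass (adjusted p = 0.168), nor did 1.15 ± 0.50 for transgenic against wild-type sham hearts (adjusted p = 0.278; 0.65 without transgenic sham array 2). With slide as a fixed block these were 2.27 (adjusted p = 0.0463) and 2.38 (adjusted p = 0.0434), and the first also passed with array weights (1.02, adjusted p = 0.0264) and without scaling (1.81, adjusted p = 0.0156). The limit here is signal over background.

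Npr2, the receptor for the C-type peptide, passed in none of the 5 comparisons. Wild-type sham arrays read 2.17, 2.01 and 2.30 and wild-type TAC arrays 2.12, 2.10 and 1.98, while transgenic sham arrays read 2.38, 2.41 and 2.45 and transgenic TAC arrays 2.43, 2.46 and 2.26. Transgenic arrays lay above wild-type arrays within sham and within TAC hearts, without overlap. The differences were 0.25 ± 0.11 (adjusted p = 0.265) in sham and 0.31 ± 0.11 (adjusted p = 0.122) in TAC hearts, and neither passed; the second passed over the 14289 probes well above background on all 12 arrays (adjusted p = 0.0411). TAC differed from sham by -0.09 ± 0.11 (95% interval -0.33 to 0.14) in wild-type and -0.03 ± 0.11 (-0.27 to 0.21) in transgenic hearts. Without scaling the wild-type value turned to 0.64 (adjusted p = 0.0165), where the median of all probes was also 0.64, and with slide as a fixed block it was 0.0029 (adjusted p = 0.991). Of the 4 other measured membrane cyclases and their ligands, 0 passed in any of the 5 comparisons; Guca2b, a guanylin-family peptide gene, differed by -0.67 ± 0.31 in wild-type hearts (adjusted p = 0.167).

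Cyclic GMP is also made by the soluble guanylyl cyclase, an alpha and beta pair that nitric oxide activates. Of 12 measured genes of that branch, 6 were higher and 1 was lower in wild-type TAC hearts, with a median of 0.61, against 20.2% called and a median of -0.09 over all probes. Gucy1a1, the alpha-1 subunit, read -1.09, -0.64 and -0.78 in wild-type sham and 0.20, 0.23 and 1.31 in wild-type TAC hearts, a difference of 1.42 ± 0.29 (adjusted p = 0.009). Gucy1b1, its beta-1 partner, read from -0.78 ± 0.19 in sham to 0.51 ± 0.35 in TAC hearts, a difference of 1.29 ± 0.25 (adjusted p = 0.0072). For both subunits every wild-type TAC array lay above every wild-type sham array. Gucy1a2 was higher by 0.88 ± 0.23, and Gucy1b2 was lower by -1.38 ± 0.30 (adjusted p = 0.0122), against the rest of the list. With normexp correction Gucy1a2 and Nos3 kept their direction and did not pass. Gucy1a2 also did not pass after quantile normalization (0.86, adjusted p = 0.574), nor Gucy1b2 without scaling (-0.64, adjusted p = 0.135).

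Nos3, the endothelial nitric oxide synthase, was higher by 0.66 ± 0.12 in wild-type TAC hearts (adjusted p = 0.0066), with 2.17, 2.42 and 2.09 in sham and 2.91, 2.89 and 2.85 in TAC hearts. In transgenic hearts Nos3 read 2.59, 2.55 and 2.37 in sham and 2.21, 2.39 and 2.52 in TAC hearts, and the difference between the responses was -0.78 ± 0.18 (adjusted p = 0.0338; 0.0554 with median scaling and 0.347 with normexp). Ddah1 and Ddah2, which break down an inhibitor of nitric oxide synthases, were higher by 1.82 ± 0.39 and 1.12 ± 0.17 in wild-type TAC hearts. In transgenic hearts 0 of the 12 genes passed for TAC, with a median of 0.13; Gucy1a1 differed by 0.12 ± 0.29 and Gucy1b1 by 0.20 ± 0.25. The difference of their responses did not pass (adjusted p = 0.0856 for Gucy1a1 and 0.0903 for Gucy1b1). Endothelial markers (4 of 8 higher, 1 lower; mean 0.31 to 0.50) and smooth muscle and pericyte markers (4 of 9 higher, 1 lower; mean 0.49 to 0.77) moved in the same arrays, which was not tested as a part of these differences. In transgenic TAC hearts those means ran from 0.14 to 0.23 and from -0.05 to 0.32.

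Pde5a, the phosphodiesterase that degrades cyclic GMP, was the gene with the widest spread. Wild-type sham arrays read 4.41, 4.44 and 4.99 and wild-type TAC arrays 3.00, -1.34 and -2.08. Transgenic sham arrays read 3.57, 4.22 and 4.27 and transgenic TAC arrays 3.59, 1.53 and 3.21. Wild-type TAC arrays 2 and 3 lay far under all others, wild-type TAC array 1 lay among the transgenic TAC arrays, and all 12 were well above background. The order of means was wild-type TAC (-0.14 ± 2.75), transgenic TAC (2.78 ± 1.09), transgenic sham (4.02 ± 0.39) and wild-type sham (4.61 ± 0.32). The wild-type difference was -4.75 ± 1.11 (adjusted p = 0.0156), 26.9-fold lower, with a 95% interval from -7.23 to -2.27. It was lost without wild-type sham array 3 (-4.57, adjusted p = 0.0545) or wild-type TAC array 3 (-3.78, adjusted p = 0.0602), with the 2 groups fitted alone (adjusted p = 0.0532) and under the slide block (-5.07, adjusted p = 0.143); within a slide it was -5.77.

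In transgenic hearts Pde5a differed by -1.24 ± 1.11 (95% interval -3.72 to 1.24, adjusted p = 0.832), and the difference between the responses was 3.51 ± 1.57 (adjusted p = 0.202). Without wild-type TAC array 1 the latter passed (5.08, adjusted p = 0.0377), as did transgenic against wild-type TAC hearts (4.49, adjusted p = 0.0149, against 2.92 and 0.161 with it). The 4 arrays with the lowest Pde5a, the 3 wild-type TAC arrays and transgenic TAC array 2, were also the 4 with the highest 75th percentile (9.77 to 9.83 against 8.89 to 9.42 on the other 8, log2 signal). Those same 4 arrays held the 4 highest Nppa values (8.11 to 8.70 against 5.31 to 7.22), while Nppb on transgenic TAC array 2 was 4.16. The part of array brightness in the Pde5a difference was not tested.

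The 5 genes most like Pde5a over the 12 arrays were Olfr441 (0.73), Slc49a4 (0.91), Lcn6 (1.03), Olfr362 (1.12) and Vmn1r227 (1.17), where Pde5a had a root mean square of 2.84. Olfr441 and Olfr362 are olfactory receptor genes, Vmn1r227 is a vomeronasal receptor gene and Lcn6 is a lipocalin gene known from the epididymis. Their means in wild-type TAC hearts lay -3.85 to -2.97 from sham. Of 1452 probes for olfactory, vomeronasal and trace amine receptors, a group chosen after these values were seen, 616 were tested, of which 38 were lower and 1 higher in wild-type TAC hearts, 6.33% against 20.2% of all probes. The genes closest to Pde5a thus included sensory receptor genes, and whether their probes read those genes in these hearts was not tested.

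**Figure D4:**
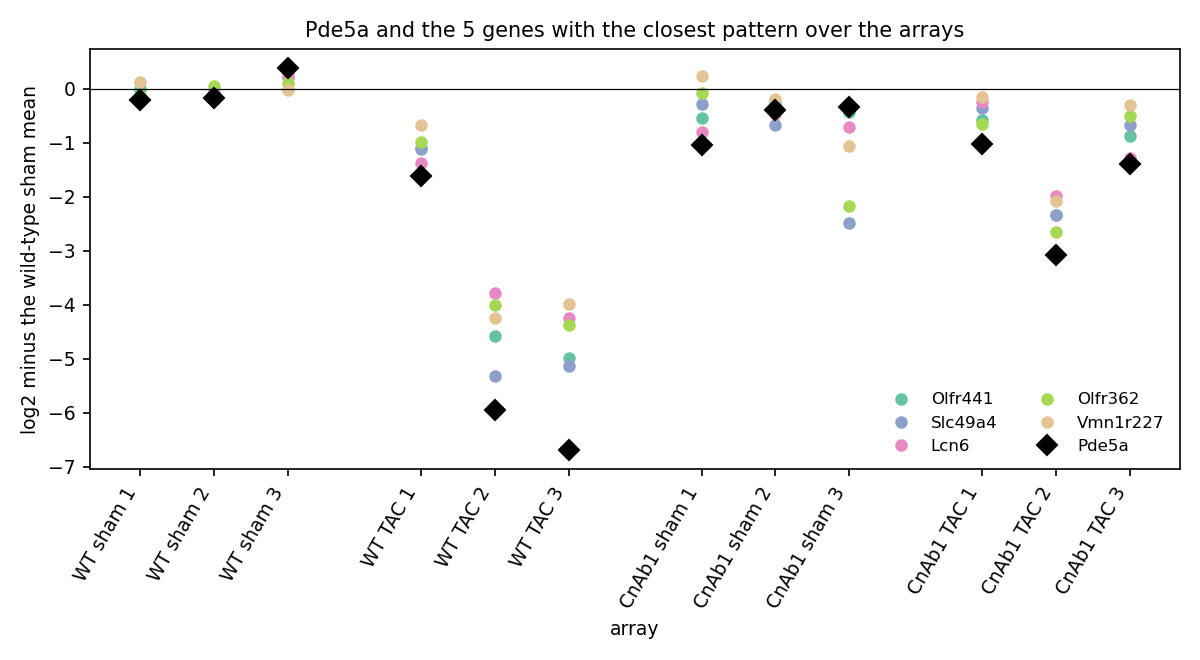
Pde5a (black diamonds) and the 5 genes with the closest pattern (coloured points) on each of the 12 arrays, as log2 minus the wild-type sham mean (vertical axis). Wild-type TAC arrays 2 and 3 are lowest for all 6 genes, and transgenic TAC array 2 also lies low.

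Other phosphodiesterases did not move with Pde5a in a common direction. Of the 17 other measured genes for cyclic GMP phosphodiesterases and export, 3 were higher and 3 lower in wild-type TAC hearts, with a median of -0.03. Over all probes 9.09% were higher and 11.2% lower. Pde1a, activated by calcium and calmodulin, was higher by 1.28 ± 0.28 (adjusted p = 0.0119) and Pde9a, specific for cyclic GMP, by 1.21 ± 0.31 (adjusted p = 0.0214). Pde3a, which cyclic GMP inhibits, was lower by -0.87 ± 0.24 (adjusted p = 0.0325), as were Pde11a by -0.90 ± 0.25 and Pde6g, a subunit of the retinal enzyme, by -0.53 ± 0.17. With normexp correction Pde11a turned to 0.37 and Pde6g to 0.04, and Pde6g to 0.20 without scaling, none of them past the threshold. Pde3a was at -0.14 with normexp (adjusted p = 0.782) and at -0.13 without scaling (adjusted p = 0.674).

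Abcc4, an exporter of cyclic nucleotides, was higher in sham hearts of transgenic than of wild-type mice by 0.77 ± 0.12 (adjusted p = 0.0177), with 0.10, 0.35 and 0.40 against -0.45, -0.55 and -0.46. It was higher after TAC by 0.46 ± 0.12 in wild-type hearts (adjusted p = 0.02), while in transgenic hearts the difference was -0.40 ± 0.12 and did not pass (adjusted p = 0.786). The responses differed by -0.87 ± 0.16 (adjusted p = 0.023). With median scaling the adjusted p was 0.0669 in sham hearts, 0.118 for TAC in wild-type hearts and 0.0888 for the responses. With normexp these were 0.102, 0.079 and 0.158. Of the 8 cyclic AMP phosphodiesterases, Pde4a (-0.66 ± 0.19), Pde4d (-0.68 ± 0.18) and Pde7a (-1.06 ± 0.19) were lower in wild-type TAC hearts and 0 were higher. Over all probes 11.2% were lower and 9.09% higher. Without scaling Pde4a and Pde4d turned to 0.07 and 0.05. Pde7a was also lower in sham hearts of transgenic mice, by -0.93 ± 0.19 (adjusted p = 0.0475; 0.0688 after quantile normalization).

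Prkg1, the kinase that cyclic GMP activates, was 1.71-fold higher after TAC in wild-type hearts. Wild-type sham arrays read -1.05, -1.31 and -1.25 and wild-type TAC arrays -0.04, -0.68 and -0.58. Transgenic sham arrays read -0.64, -0.79 and -0.44 and transgenic TAC arrays -0.86, -0.20 and -0.22. The wild-type sham arrays were the 3 lowest of the 12, and the other 3 groups, with means of -0.62 ± 0.17 (transgenic sham), -0.43 ± 0.34 (wild-type TAC) and -0.43 ± 0.37 (transgenic TAC), overlapped. The wild-type difference was 0.77 ± 0.22 (adjusted p = 0.0334) and passed in 16 of 27 other settings. It was lost without each wild-type sham array (adjusted p from 0.0639 to 0.0979), without wild-type TAC array 1 (0.108) or 3 (0.0667), and with slide as a fixed block (0.57, adjusted p = 0.282) or random block (0.70, adjusted p = 0.052); within a slide it was 0.50. Transgenic sham hearts read 0.58 ± 0.22 above wild type (adjusted p = 0.216) and the transgenic TAC difference was 0.20 ± 0.22 (adjusted p = 0.861). Prkg1 is abundant in smooth muscle, and the smooth muscle and pericyte markers given above ran from 0.17 to 0.55 in transgenic sham hearts; their part was not tested.

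Of the 19 other measured kinases and kinase targets, 2 were higher and 4 lower in wild-type TAC hearts, where 9.09% of all probes were higher and 11.2% lower. Vasp, an actin-binding target of the kinase, was higher by 0.67 ± 0.16 (adjusted p = 0.019), and Itpr1, a calcium release channel, by 0.86 ± 0.17 (adjusted p = 0.0082). Rgs2, a regulator of G protein signals that the kinase activates, was lower by -1.15 ± 0.26 (adjusted p = 0.0132), with 3.91, 3.64 and 3.72 in sham and 2.55, 2.41 and 2.85 in TAC hearts. Tnni3 (-0.90 ± 0.12), Pln (-0.75 ± 0.17) and Crip2 (-0.56 ± 0.10) were lower too; Tnni3 and Pln are also ventricular muscle markers. After quantile normalization Crip2 was at -0.04 and Pln at -0.45, and neither passed. Crip2, a substrate of the kinase, was lower in transgenic sham hearts by -0.53 ± 0.10 (adjusted p = 0.0386; -0.22 and 0.352 after quantile normalization). The TAC responses of the genotypes differed for Tnni3 (0.80 ± 0.17, adjusted p = 0.0303) and Crip2 (0.55 ± 0.14, adjusted p = 0.0463). After quantile normalization these were 0.33 (adjusted p = 0.194) and 0.08 (adjusted p = 0.761), without scaling 0.18 and -0.07, and neither passed with median scaling or normexp.

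Of 21 transcription factors known to act on the Nppa or Nppb promoters, 2 were higher and 2 lower in wild-type TAC hearts, a number near the 20.2% called over all probes. Tbx2, a repressor of Nppa in the embryonic heart, was higher by 1.43 ± 0.27 (adjusted p = 0.0065), and Nfatc2, which calcineurin activates, by 0.68 ± 0.21 (adjusted p = 0.0462). Tbx5, an activator of Nppa, was lower by -0.65 ± 0.20 (adjusted p = 0.0486; 0.08 without scaling), and Mef2a by -0.95 ± 0.19 (adjusted p = 0.0083). The Nfatc2 call was lost after quantile normalization (adjusted p = 0.0603), with normexp (0.122) and under the slide block (0.39, adjusted p = 0.388). Mef2a did not pass with normexp (-0.65, adjusted p = 0.133) or without scaling (-0.22, adjusted p = 0.457). In TAC hearts Tbx5 was higher in transgenic than in wild-type mice by 1.13 ± 0.20 (adjusted p = 0.0228), with 1.38, 2.05 and 1.84 against 0.61, 0.50 and 0.77. The difference between the TAC responses passed for Nkx2-5 (0.68 ± 0.16, adjusted p = 0.041), a cardiac factor whose wild-type arrays read 3.27, 3.35 and 3.41 with sham and 2.96, 3.11 and 3.01 with TAC. Its transgenic arrays read 2.97, 2.87 and 2.98 with sham and 3.49, 3.33 and 3.09 with TAC. The call for Nkx2-5 was lost after quantile normalization (0.54, adjusted p = 0.101), with median scaling (0.188) and with normexp (0.395), and without scaling the value was 0.06 (adjusted p = 0.884). Gata4, whose motif stands in both promoters, differed by 0.12 ± 0.21 in wild-type and 0.16 ± 0.21 in transgenic hearts (adjusted p = 0.746 and 0.879).

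Over the 87 measured genes of these lists other than the 8, 13 were higher and 13 lower in wild-type TAC hearts. That was 29.9%, against 20.2% of all probes. After quantile normalization 13 were higher and 8 lower, where 16.1% of all probes were called. With normexp correction the counts were 7 and 3 (4.99% of all probes), and without scaling between arrays 50 and 0 (47%). With slide as a fixed block 0 of the 87 passed in any comparison, where 1% of all probes or fewer were called. After TAC 0 of the 87 passed in transgenic mice. In sham hearts 2 were higher and 2 lower in transgenic mice, 4.60% against 1.25% of all probes, and in TAC hearts 1 was higher, 1.15% against 3.86%. For the responses of the genotypes, 4 were higher and 2 lower, 6.90% against 6.71% of all probes, near the share over all probes. Those counts were 0 and 2 after quantile normalization, 0 and 0 with median scaling or normexp, and 0 and 21 without scaling. Over all probes 3.27% were called after quantile normalization, 2.28% with median scaling, 0% with normexp and 15.8% without scaling. The lists were drawn up with earlier results of these data known and each gene is described by its own test.

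**Figure D5:**
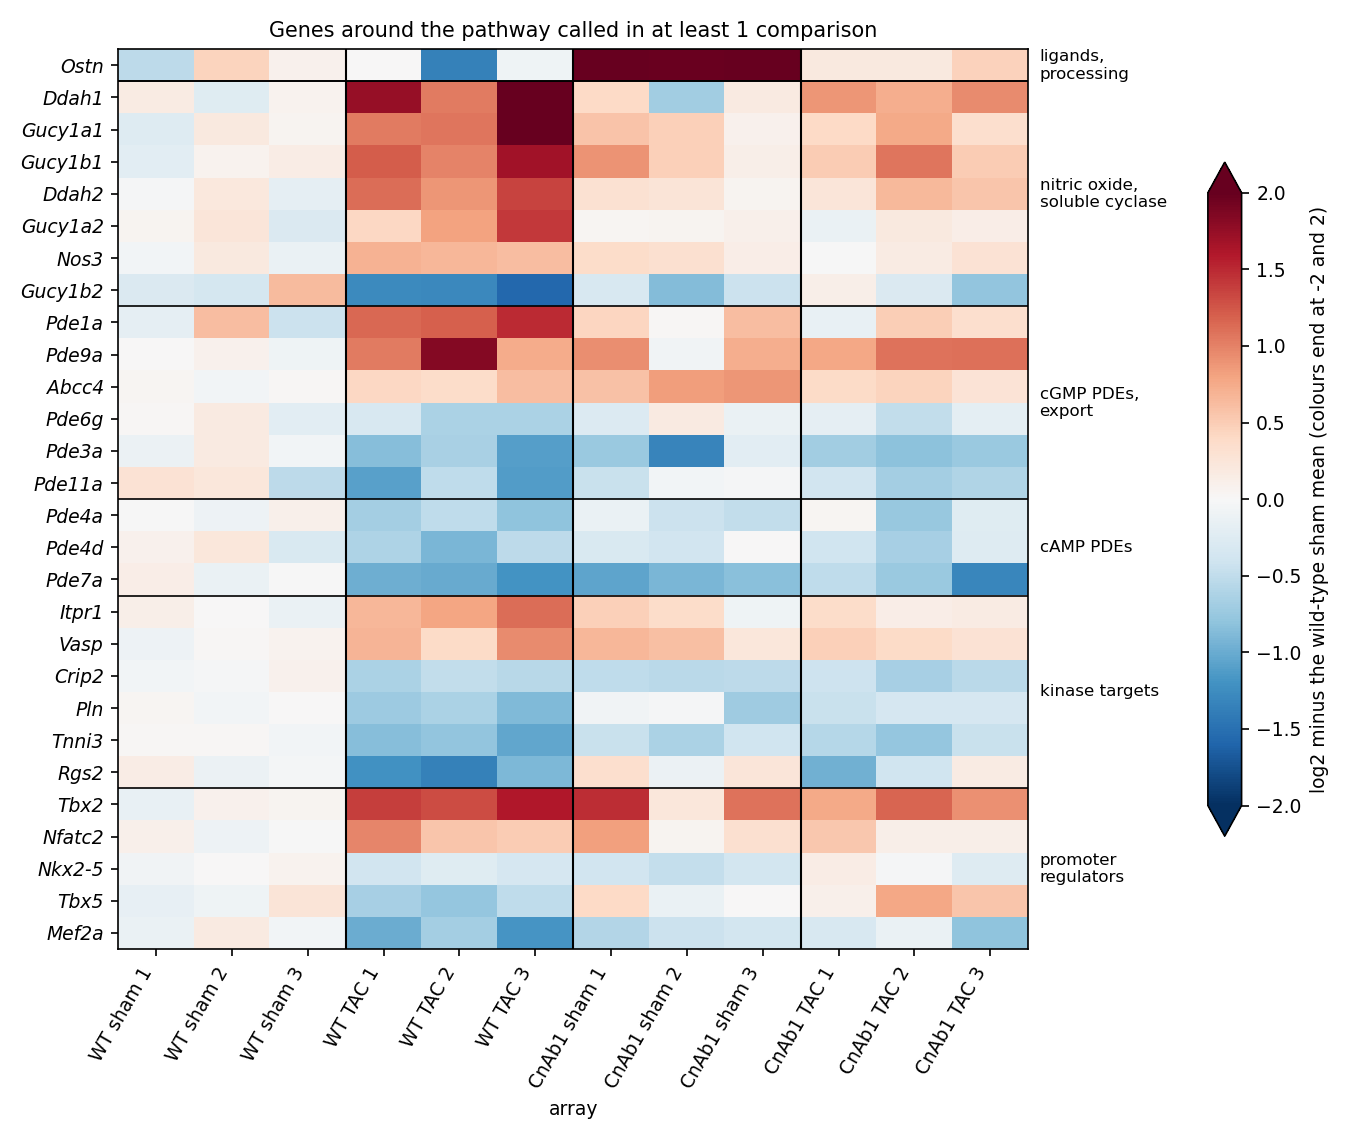
The 28 other genes of the pathway lists called in at least 1 comparison (rows, grouped by list) on the 12 arrays (columns), coloured by log2 minus the wild-type sham mean from -2 (blue) to 2 (red). The scale ends are reached for Ostn on transgenic sham arrays 1 and 3, and for Ddah1 and Gucy1a1 on wild-type TAC array 3. Ostn is red on the 3 transgenic sham arrays. Without scaling between arrays, Crip2, Pde4a, Pde4d, Pde6g and Tbx5 turn from lower to higher in wild-type TAC hearts.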

How the data were processed

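RNA from left ventricle was read on 12 1-colour Agilent arrays, 3 per group. Per the file headers, the deposited scanner files hold intensity values that Feature Extraction 10.7.3.1 had background-corrected; the authors' deposited value table holds log2 values, whose columns correlated with the scanner values at 0.9997 or more after centring of each probe on its median, and its normalization is not stated. Per the submitters' processing notes RMA was used, with no role given. The scanner intensity was taken here to log2 minus each array's 75th percentile. Outlier readings (2152 over the 12 arrays of 43020 spots each) were left out and spots of a probe averaged. Probes were named through the RefSeq table (26424 of 39429 probes; assembly GRCm38.p6). Probes well above background on at least 3 arrays were fitted with limma 3.58.1 in R 4.3.3 (group means, 12 arrays, 8 residual and 1.8 prior degrees of freedom), and p-values were adjusted over all 30346 by Benjamini-Hochberg, with a threshold of 0.05.

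Members, lists and tests were chosen with earlier results of these data known. Named beside the 8 genes were up to 5 genes of each list with the smallest p in wild-type hearts, up to 3 in each other comparison, genes that went against their list, and the 5 closest in pattern to Nppa, Nppb, Pde5a and Npr3. Deviations from the group means had a correlation over 0.1 in 7 of 18 same-numbered pairs, with a range from -0.229 to 0.276. Differently numbered pairs gave 11 of 36, with a range from -0.428 to 0.326, and the main fit used no pairing. Alternatives were other scalings, background correction, filters, variance models, slide or replicate blocks and each array left out. The number of arrays limits the precision.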

Additional observations from a re-analysis of the deposited data

Results flagged for a closer look

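The response of Nppa to TAC differed between the genotypes by a test of the difference itself: the transgenic minus the wild-type response was -2.62 ± 0.49 on the log2 scale (limma, adjusted p = 0.0227). The wild-type arrays moved from 5.31 to 6.02 in sham to 8.44 to 8.70 in TAC hearts, and the transgenic arrays from 6.79 to 7.02 in sham to 6.49 to 8.11 in TAC hearts. Over all settings the value ran from -3.24 to -2.23, and 20 of 26 kept the call.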

How the results depend on the processing

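In wild-type hearts 6 of the 8 genes passed, 0 in transgenic hearts, 0 for genotype in sham hearts, 1 in TAC hearts and 1 for the difference of responses. For TAC in transgenic hearts the count was 0 under every alternative run. Normexp background correction gave 3 in wild-type hearts (4.99% of all probes), 0 for genotype in TAC hearts (0.132%) and 0 for the responses (0%). Keeping only probes well above background on all 12 arrays left 6 of the 8 genes. It gave 1 for genotype in sham hearts, 3 in TAC hearts and 2 for the responses, where 8.65%, 19.7% and 25.4% of all probes were called. A trended robust variance gave 1, 2 and 2, where 3.62%, 8.49% and 11.3% of all probes were called. Array weights gave 2 for genotype in TAC hearts (13.5% of all probes), and fitting the compared groups alone 0 (0.244%). With slide as a fixed block the counts were 1 in wild-type hearts, 1 for genotype in sham hearts, 0 in TAC hearts and 0 for the responses. There 1%, 0.155%, 0.0362% and 0% of all probes were called. No scaling between arrays, chosen after seeing the data, gave 2 for genotype in TAC hearts (5.61% of all probes) and 2 for the responses (15.8%). It turned Npr2 to 0.64 and Corin to 0.070 in wild-type hearts. The 7 calls there were 6 higher and 1 lower, where 47% of all probes were called. Leaving out each array gave 2 to 6 in wild-type hearts, where 10.5% to 23.5% of all probes were called. The count was 2 without sham array 3 (11.8% of all probes) or TAC array 3 (10.5%). For genotype it was 0 to 1 in sham hearts (0.25% to 2.43% of all probes) and 0 to 2 in TAC hearts (0.59% to 5.05%). For the responses it was 0 to 2 (0% to 8.65%). The arrays share only a replicate number; with a replicate block 5 of the 8 genes passed in wild-type hearts (Prkg1 did not, adjusted p = 0.0635), and 5263 in place of 6141 over all probes. Of 1062 differences under 27 alternatives, 35 had another sign than reported, 2 of them called in the report or under the alternative. Over all probes, calls in wild-type hearts went from 6141 to 1515 with normexp, 12121 with array weights, 14250 without scaling and 304 with the slide block. The cause of these moves was not tested. Signal over background limits Npr1, well above background on 7 of 12 arrays.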
